A study of Homo sapiens with 6 samples.

Results

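The nuclear genes of the respiratory chain and ATP synthase were described complex by complex in A549, a long-established line derived from a human lung adenocarcinoma. Members were the rows of protein-coding genes in the deposited count table whose symbols begin with NDUF (complex I), are SDHA to SDHD (complex II), begin with UQCR or are CYC1 (complex III), begin with COX4 to COX8 (complex IV) or begin with ATP5 (complex V). The rule used symbols only, and it found 96 members among 29845 genes with a read, namely 47, 4, 10, 15 and 20 for complexes I to V. Of these, 88 passed the filter on low counts and were tested (46, 4, 9, 11 and 18). Both groups were A549 cells transfected with a plasmid by a lipid reagent. The control carried the empty plasmid and TFAM-OE carried FLAG-tagged TFAM, the mitochondrial transcription factor A. Each group held 3 libraries of polyA RNA, called biological replicates by the study, and the methods give a single time of harvest after transfection. The transfection was of a whole culture, so each value averages transfected and untransfected cells, and fewer cells expressing a gene cannot be told apart from less RNA per cell.

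The respiratory chain is built from subunits of both genomes. Complex I takes electrons from NADH and complex II takes them from succinate, complex III passes them to cytochrome c, complex IV passes them to oxygen, and complex V uses the resulting proton gradient to make ATP. TFAM binds and packages mitochondrial DNA and is needed to transcribe it, whereas the genes described here are transcribed in the nucleus. Complex II is the only one of these complexes with no subunit encoded in mitochondrial DNA. The comparison asks whether the transcripts for the nuclear subunits differ in cells that received the TFAM plasmid.

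TFAM itself was measured at 76.1, 70.2 and 72.7 CPM (reads scaled to a common library total after TMM normalization) in control replicates 1 to 3 and at 71.9, 77.3 and 83.0 CPM in TFAM-OE replicates 1 to 3. The groups overlapped, with means of 73.0 ± 2.97 and 77.4 ± 5.58 CPM (SD, n = 3 each), a log2 fold change of 0.08 (95% CI -0.13 to 0.30) and, by the quasi-likelihood test of edgeR, an adjusted p of 0.623. The plasmid carries the TFAM coding sequence, so the RNA does not bear out the label. The study did report the overexpression at the protein level, by western blot against the FLAG tag. TFAM-OE below means the libraries labelled so. With an offset for transcript length and GC content, added after the data were seen, TFAM was at 0.27 with an adjusted p of 0.038. Library totals ran from 26650854 to 37321956 counted reads. The epithelial keratins KRT8, KRT18 and KRT7 were each at 1080 CPM or more in all 6 libraries, whereas the epithelial genes EPCAM (at most 1.07 CPM) and CDH1 (at most 8.30 CPM) were low. Of 4 leukocyte genes, 3 had a row, with a summed CPM of 3.01 to 3.70 in the control and 0.966 to 1.73 in TFAM-OE. This was almost all CD68, the only one tested, which was called lower (log2 fold change -1.21, adjusted p = 0.0152), while PTPRC had 1 read. The sum of 3 endothelial genes was at most 0.267 CPM, and that of 4 fibroblast genes 4.82 to 5.27 in the control and 2.79 to 4.93 in TFAM-OE. Of these, 0 endothelial genes and 1 fibroblast gene (COL1A1) were tested, and COL1A1 was not called.

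No nuclear member was called at an adjusted p below 0.05 by edgeR's quasi-likelihood test. The counts were 0 of 88 higher and 0 lower in TFAM-OE, where 3.48% of all 16555 genes tested were called higher and 4.81% lower, or 8.29% in all. The study's thresholds add a fold change of at least 2, and 0 members passed them, against 2.51% of all genes. At an unadjusted p below 0.05 there were 10 members, or 11.4%, all of them higher in TFAM-OE, against 12.2% of all genes higher and 13.2% lower, or 25.4% in all. Members at that unadjusted level numbered 4 in complex I (NDUFAF3, NDUFS5, NDUFA5 and NDUFA2), 0 in complex II, 1 in complex III (UQCRC1), 0 in complex IV and 5 in complex V (ATP5C1, ATP5S, ATP5G1, ATP5F1 and ATP5A1). Limma-voom called 0 members (3.41% of all genes higher). DESeq2 and the exact test of edgeR each called 2, ATP5C1 and NDUFAF3, both higher, against 5.64% and 5.92% of all genes. The quasi-likelihood test on every gene with a read called 4 higher, NDUFV1, NDUFAF3, UQCRC1 and ATP5G1, against 3.46%.

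The fitted changes were small and mostly positive. Of the 88 members, 73 had a log2 fold change above 0, or 83.0%, against 48.9% of all genes, and the range ran from -0.15 (NDUFAF1) to 0.74 (NDUFA4L2). The median was 0.12 over the members and -0.008 over all genes. By complex it was 0.09 for I, 0.09 for II, 0.18 for III, 0.12 for IV and 0.18 for V. The 95% confidence interval of 87 members lay within a 2-fold change in either direction, and that of 79 within a 1.5-fold change, so larger differences lie outside the intervals of those members. In 8 members every TFAM-OE library was above every control library (ATP5C1, NDUFAF3, ATP5S, NDUFA5, ATP5A1, NDUFS1, UQCRC2 and SDHA) and in 0 tested members every one was below, where 15.8% of all genes did each.

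**Figure D1:**
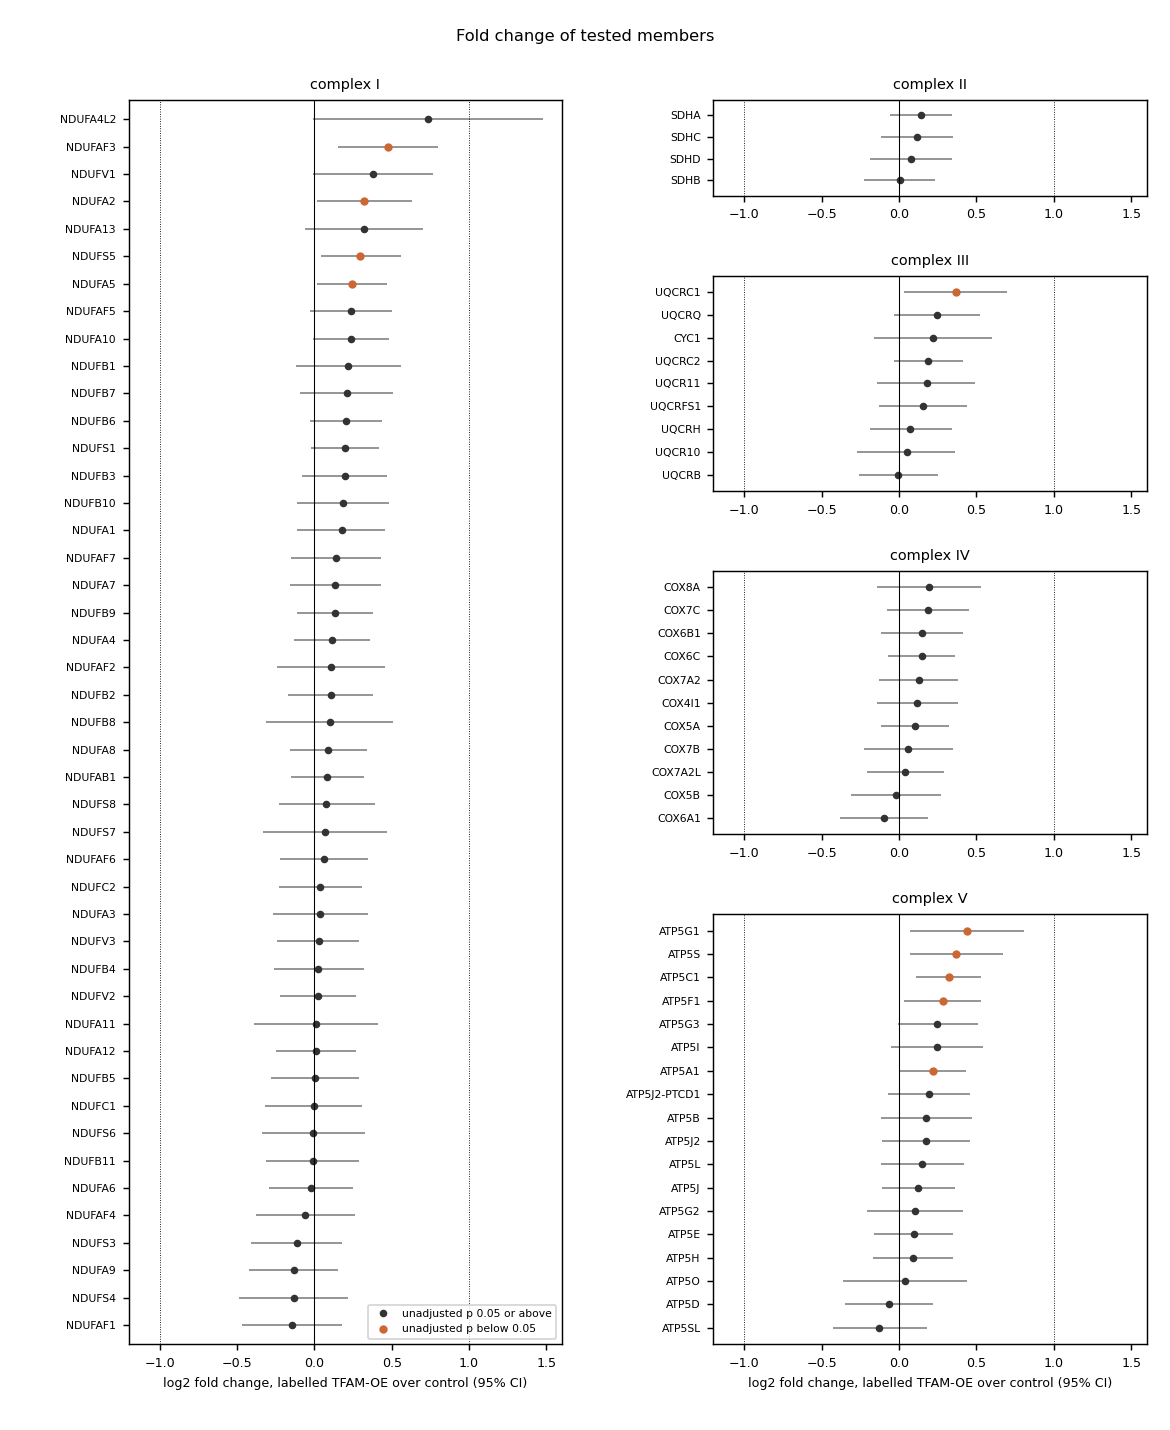
Log2 fold change of TFAM-OE over control for 87 of the 88 tested members (horizontal axis), 1 row per gene and 1 panel per complex, with bars for the 95% confidence interval and dotted lines at a 2-fold change. Most points lie right of 0 (73 of 87), the 10 orange points have an unadjusted p below 0.05, and only the bar of NDUFA4L2 crosses a dotted line.

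Among the fits that left out 1 library, the number of members called changed most without TFAM-OE replicate 3. That number also changed with the test and its settings. The members' levels moved together from library to library. Relative to each gene's mean in the control, the median log2 deviation over the 88 members was -0.09, -0.02 and 0.12 in control replicates 1 to 3 and 0.25, 0.15 and -0.08 in TFAM-OE replicates 1 to 3, while over all genes it stayed between -0.01 and 0.01. TFAM-OE replicate 3 was the lowest of the TFAM-OE libraries in 82 of 88 members, or 93.2% (44.3% of all genes), and TFAM-OE replicate 1 the highest in 79, or 89.8% (43.5%). Control replicate 1 was the lowest control library in 61, or 69.3% (36.8%). Over all 6 libraries, TFAM-OE replicate 1 was highest in 70 members and the lowest was control replicate 1 in 40 and TFAM-OE replicate 3 in 34.

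**Figure D2:**
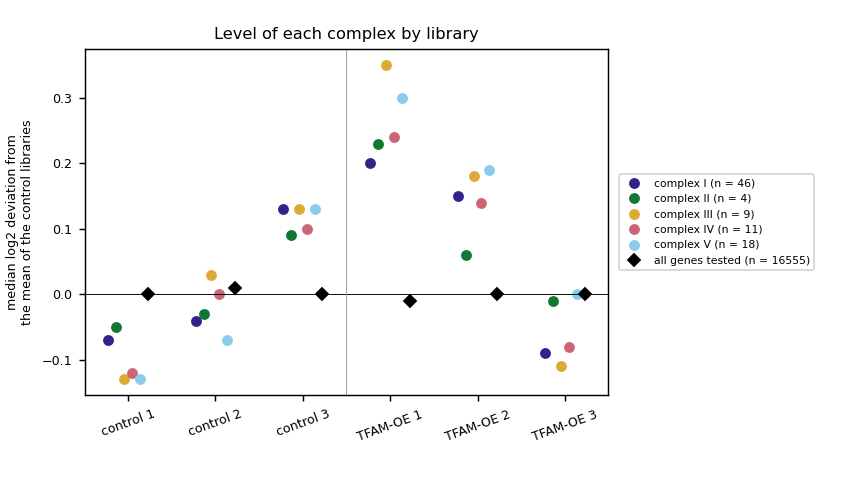
Median log2 deviation of the tested members of each complex from the gene's mean over the control libraries (vertical axis), by library, with all genes tested as black diamonds. The complexes move together, high in TFAM-OE replicate 1 (0.20 to 0.35) and at or below 0 in TFAM-OE replicate 3 (-0.11 to 0.00), while all genes stay near 0.

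Without TFAM-OE replicate 3, 13 of the 88 members were called higher and 0 lower, or 14.8% against 8.43% of all genes called higher in that fit. They were NDUFB7, NDUFV1, NDUFS5, NDUFAF3, NDUFA10 and NDUFA2 of complex I, UQCRC1 and UQCRQ of complex III, and ATP5G3, ATP5F1, ATP5C1, ATP5S and ATP5G1 of complex V, with 0 in complexes II and IV. In that fit 85 of the 88 were positive and the median was 0.21. Without control replicate 1 as well, 4 were called higher (ATP5C1, NDUFAF3, UQCRC1 and ATP5G1; 3.59% of all genes). Leaving out control replicate 1 alone, or control replicate 2, TFAM-OE replicate 1 or TFAM-OE replicate 2, gave 0 called members. In those fits 90 of 16838, 66 of 16859, 753 of 16962 and 89 of 16917 genes were called higher, in that order. Few genes of any kind were thus called without control replicate 1, control replicate 2 or TFAM-OE replicate 2. Leaving out control replicate 3 gave 1 called member (NDUFAF3; 2.85% of all genes).

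The difference between TFAM-OE replicate 3 and the other 2 TFAM-OE libraries moved with transcript length over all genes, which have a GENCODE canonical transcript for 98.7% of those tested. Its median log2 value was -0.20 in the shortest of 4 equal groups of genes by transcript length and 0.30 in the longest. By GC content it was 0.17 in the lowest of 4 such groups and -0.19 in the highest. Over the 88 members, whose canonical transcripts have a median of 929.5 nt and a median GC content of 47%, it was -0.31. In the group of all genes with 42.5% to 49.6% GC it was 0.06. Over the members, the difference of control replicate 1 from the other control libraries was -0.13. The part of transcript length and GC content in the members' values was tested only by offsets. With an offset for transcript length taken from the deposited values, 3 members were called higher (ATP5C1, NDUFAF3 and ATP5G1; 6.72% of all genes). With an offset for canonical length and GC content, added after the data were seen, 9 were called higher (8.05% of all genes) and ATP5D, the delta subunit of F1, was lower by a log2 fold change of -0.24 (adjusted p = 0.0429).

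The promoters of the tested members were searched for letters of motifs known in respiratory genes. Whether such motifs relate to the movement between libraries was not tested. Nuclear respiratory factor 1 (NRF1) and the ETS family factor GABP are known activators of many of these genes and of TFAM. RefSeq promoters (GRCh38.p14, 250 bases before to 50 after the most upstream listed start) were matched by symbol and locus to 72 of the 88 tested members, and the search covered both strands. The NRF1 letters, GCGCA and GCGC with any 1 base between, were found in 16 of 72, or 22.2%, against 8.59% of 15843 protein-coding promoters. The ETS letters CCGGAAG were found in 20, or 27.8%, against 14.2%, and the YY1 letters AAGATGGCG in 8, or 11.1%, against 2.69%. TATAAA was in 6 (8.33%, against 9.75%) and CCAAT in 24 (33.3%, against 36.4%). By complex, the NRF1 letters were in 7 of 40 promoters of complex I, 2 of 3 of II, 4 of 7 of III, 0 of 10 of IV and 3 of 12 of V, and the ETS letters in 6, 2, 3, 5 and 4. Members with the NRF1 letters had a median log2 fold change of 0.08 and those without 0.12, and for the ETS letters the medians were 0.14 and 0.10. The windows below hold 30 bases upstream of the RefSeq start on the gene's strand, and capitals mark the NRF1 letters, or the ETS letters in COX5B. The GENCODE spans given below for ATP5C1 and UQCRC1 start farther upstream, so their windows overlap those spans. They were chosen to show 1 or 2 members per complex, among them the gene with the smallest p (ATP5C1).
ATP5C1, chr10:7788145-7788174, plus strand: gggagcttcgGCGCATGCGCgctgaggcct
NDUFB4, chr3:120596167-120596196, plus strand: agagcacttcGCGCATGCGCatatcaccga
SDHA, chr5:218242-218271, plus strand: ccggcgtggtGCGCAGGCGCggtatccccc
SDHD, chr11:112086753-112086782, plus strand: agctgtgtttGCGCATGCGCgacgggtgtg
UQCRC1, chr3:48609674-48609703, minus strand: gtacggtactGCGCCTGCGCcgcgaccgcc
UQCRFS1, chr19:29213163-29213192, minus strand: gcgcctcctcGCGCCTGCGCcgtggttgga
COX5B, chr2:97646014-97646043, plus strand: gaagcccgcccCCGGAAGtccctcctgtct
The same motif letters stand in ATP5C1, with the smallest p of all members, and in SDHD and NDUFB4, whose log2 fold changes were 0.07 and 0.03. These windows were picked with the values known, and whether the letters relate to fold change was not tested.

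In complex I the core subunits, which carry the flavin and the iron-sulphur clusters, had 0 called of 7, with log2 fold changes from -0.11 to 0.38 and a median of 0.07. NDUFV1 (ENSG00000167792.11, chr11:67605653-67612554), the subunit that binds NADH, was at 94.0, 135 and 148 CPM in the control and 188, 169 and 134 CPM in TFAM-OE. Its groups overlapped because TFAM-OE replicate 3 fell among the controls, and its log2 fold change was 0.38 (SE 0.175, adjusted p = 0.205). NDUFS1, the largest subunit with iron-sulphur clusters, was at 83.0, 80.7 and 81.8 CPM against 86.8, 90.5 and 105 CPM. Here TFAM-OE replicate 3 was the highest library, against the pattern of most members, and the groups did not overlap (log2 fold change 0.20, 95% CI -0.02 to 0.42, adjusted p = 0.242). NDUFS7, which carries the last cluster before the quinone site, had a log2 fold change of 0.07 (95% CI -0.33 to 0.47).

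The supernumerary subunits of complex I, which surround the core and do not carry electrons, numbered 30 tested rows, with 24 positive and a median of 0.09. NDUFS5 had the highest level of the complex by deposited FPKM (fragments per kilobase of transcript, scaled to the library), 195 over the 6 libraries, with 106, 106 and 128 CPM in the control and 151, 145 and 122 CPM in TFAM-OE. TFAM-OE replicate 3 lay within the control range, and the log2 fold change was 0.30 (SE 0.117, adjusted p = 0.145). NDUFAB1, the mitochondrial acyl carrier protein, was at 0.09 (95% CI -0.15 to 0.32).

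Of the 7 assembly factors named NDUFAF, which help build complex I and are not part of it, 5 were positive and the median was 0.11. NDUFAF3 (ENSG00000178057.14, chr3:49020459-49023495), named after its values were seen, was at 33.0, 41.7 and 48.1 CPM in the control and 62.7, 57.4 and 50.5 CPM in TFAM-OE. All 3 TFAM-OE libraries were above all controls, the fold change was 1.39 (95% CI 1.11 to 1.74), and the adjusted p was 0.0742.

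NDUFA4 and NDUFA4L2 share the NDUFA prefix, but NDUFA4 is known as a subunit of complex IV, and NDUFA4L2 is its hypoxia-induced relative. NDUFA4 was at 142, 145 and 166 CPM against 180, 163 and 148 CPM, and the groups overlapped (log2 fold change 0.12, adjusted p = 0.547). NDUFA4L2 had the lowest level of the tested members of complex I, 0.525 FPKM, with 158 reads in all 6 libraries together. It was at 0.566, 0.598 and 0.655 CPM in the control and 0.627, 0.963 and 1.47 CPM in TFAM-OE, and unlike most members its highest library was TFAM-OE replicate 3. Its log2 fold change of 0.74 was the largest of all members, with the widest interval (-0.01 to 1.48, adjusted p = 0.203).

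In complex II, the succinate dehydrogenase of the citric acid cycle, all 4 members were positive with 0 called and a median of 0.09. SDHA, which binds flavin, was at 114, 117 and 124 CPM in the control and 138, 127 and 125 CPM in TFAM-OE. The groups did not overlap, and the log2 fold change was 0.14 (95% CI -0.06 to 0.34, adjusted p = 0.371). Annotated pseudogenes of SDHA held 1727 reads, against 24278 on the gene. The study counted uniquely mapped reads, so reads that map to both are in neither count, and their number is not known here. SDHB, the iron-sulphur subunit, was at 94.4, 95.9 and 103 CPM against 108, 99.0 and 87.0 CPM, overlapping groups with a log2 fold change of 0.00 (95% CI -0.23 to 0.23). The membrane anchors SDHC and SDHD were at 0.11 (95% CI -0.12 to 0.35) and 0.07 (95% CI -0.19 to 0.34).

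In complex III, 8 of 9 tested members were positive, the median was 0.18 and 0 were called. The catalytic subunits CYC1 (cytochrome c1) and UQCRFS1 (the Rieske iron-sulphur protein) were at log2 fold changes of 0.22 (95% CI -0.16 to 0.60) and 0.15 (95% CI -0.13 to 0.44). CYC1 was at 277, 372 and 393 CPM in the control and 473, 426 and 315 CPM in TFAM-OE, so that TFAM-OE replicate 3 lay below 2 controls. The core protein UQCRC1 (ENSG00000010256.10, chr3:48599002-48610976) was at 163, 201 and 221 CPM against 290, 260 and 203 CPM. Its groups overlapped through TFAM-OE replicate 3, and its log2 fold change was 0.37 (SE 0.151, adjusted p = 0.164). Its partner UQCRC2 was at 140, 150 and 169 CPM against 180, 173 and 170 CPM, without overlap between the groups (log2 fold change 0.19, adjusted p = 0.268). The hinge protein UQCRH was at 0.07 (95% CI -0.19 to 0.34), and its retrocopy UQCRHL had 30 reads in all and was not tested. UQCRFS1 has an annotated pseudogene with 3981 uniquely mapped reads, against 82394 on the gene, and reads that map to both were not counted.

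In complex IV, cytochrome c oxidase, 9 of 11 tested members were positive, the median was 0.12, 0 had an unadjusted p below 0.05, and all 11 intervals lay within a 1.5-fold change. COX8A had the highest level, 481 FPKM, with 226, 285 and 299 CPM in the control and 352, 327 and 248 CPM in TFAM-OE. It had the largest log2 fold change of the complex, 0.20 (95% CI -0.14 to 0.53, adjusted p = 0.446), and its groups overlapped through TFAM-OE replicate 3. COX4I1 was at 0.12 (95% CI -0.14 to 0.38), COX5A at 0.10 (95% CI -0.12 to 0.32), COX5B at -0.02 (95% CI -0.31 to 0.27), COX6A1 at -0.10 (95% CI -0.38 to 0.19) and COX7A2 at 0.13 (95% CI -0.13 to 0.38). The isoforms known from other tissues or conditions were almost unread. COX4I2, of lung and hypoxia, had 1 read in 6 libraries, COX7A1, of heart and muscle, had 9, COX6B2 and COX8C, of testis, had 30 and 13, and all 4 were below the filter. The ubiquitous isoform was thus the one read in these cells, as COX4I1 had 70663 reads and COX7A2 19227.

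In complex V, ATP synthase, 16 of 18 tested members were positive and the median was 0.18. At an unadjusted p below 0.05 there were 5 of its 18 members, or 27.8%, against 25.4% of all genes in either direction. All 5 were higher, where 12.2% of all genes were higher at that level, and they include ATP5S, which is not a subunit. ATP5B, the catalytic beta subunit of F1, was the most abundant of all 96 members at 566 FPKM. It was at 1020, 1120 and 1330 CPM in the control and 1470, 1320 and 1140 CPM in TFAM-OE, overlapping groups with a log2 fold change of 0.18 (95% CI -0.12 to 0.47, adjusted p = 0.439). ATP5A1, the alpha subunit, was at 320, 318 and 366 CPM against 403, 378 and 386 CPM, groups that did not overlap, with a log2 fold change of 0.22 (95% CI 0.00 to 0.43, adjusted p = 0.191). ATP5C1 (ENSG00000165629.19, chr10:7788147-7807815), the gamma subunit that forms the rotating shaft, was named after its values were seen. It had 155, 148 and 167 CPM in the control and 208, 194 and 186 CPM in TFAM-OE. All TFAM-OE libraries were above all controls, TFAM-OE replicate 3 included, the log2 fold change was 0.32 (SE 0.0942, 95% CI 0.11 to 0.53), and the adjusted p of 0.063 was the lowest of any member.

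The 3 genes ATP5G1, ATP5G2 and ATP5G3 encode the same mature c subunit of the membrane ring with different targeting sequences. ATP5G1 (ENSG00000159199.13, chr17:48892765-48895871) was at 119, 161 and 179 CPM in the control and 239, 214 and 170 CPM in TFAM-OE. TFAM-OE replicate 3 lay between the controls, and the log2 fold change was 0.44 (SE 0.166, adjusted p = 0.130). ATP5G3 was at 227, 259 and 274 CPM against 329, 314 and 261 CPM, with a log2 fold change of 0.25 (95% CI -0.01 to 0.51), and ATP5G2 was at 0.10 (95% CI -0.21 to 0.41). The 7 tested stalk and membrane subunits were all positive, from 0.04 to 0.28. ATP5S, which carries the prefix but is not a subunit, had the lowest level of the tested members of complex V, 0.882 FPKM, with 8.93, 9.94 and 10.8 CPM against 13.7, 13.2 and 11.5 CPM (log2 fold change 0.37, adjusted p = 0.123). ATP5SL, also not a subunit, was at -0.13 (95% CI -0.43 to 0.18).

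The 8 members below the filter were a second row of NDUFA7 (2 reads in 6 libraries), UQCRHL, COX4I2, COX6B2, COX7A1, COX8C, ATP5EP2 (8 reads) and ATP5L2 (1 read). ATP5EP2 and ATP5L2 are copies of subunit genes. COX6A2, the muscle isoform of a complex IV subunit, had no row in the table used here.

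Levels within a complex can be compared only per length, and they spread widely. By deposited FPKM the tested members ran 371-fold in complex I (0.525 to 195), 6.76-fold in II (10.6 to 71.7), 31.6-fold in III (8.06 to 255), 11.3-fold in IV (42.4 to 481) and 642-fold in V (0.882 to 566). The low ends of I and V were NDUFA4L2, a relative of NDUFA4, and ATP5S, which is not a subunit. Among the subunits the lowest level was 1.02 FPKM in complex I (NDUFA11, overlapped by another row) and 11.9 FPKM in complex V. The low end of III was UQCR11, with 3600 reads. Another row with 14598 reads overlaps 18.1% of its canonical transcript, so its level is uncertain too. The order of FPKM in complex II was SDHB (67.1 to 74.8 over the libraries), SDHA (41.5 to 46.5), SDHD (20.2 to 25.9) and SDHC (9.73 to 11.3), with no overlap between neighbours. The length that the deposited FPKM and counts imply was, however, much above that of the canonical transcript in some members. The ratio had a median of 1.44 and ranged from 0.765 to 12.2, with 27 of 88 members above 2. For SDHC the implied length was 16007 nt, against 1308 nt for its canonical transcript. Per kilobase of canonical transcript the order of complex II was SDHC (130 CPM per kb), SDHB (96.3), SDHD (48.0) and SDHA (46.1), where SDHD (40.8 to 55.2) and SDHA (42.2 to 51.4) overlapped, so SDHC moved from last to first. Likewise ATP5G2 rose from 105 FPKM to 442 CPM per kb, above ATP5G1 (222 FPKM, 279 CPM per kb). By both measures ATP5B led complex V, COX8A led IV, CYC1 led III and NDUFS5 led I. Levels correlated between both measures across the 88 members (Spearman's rho 0.90), which share libraries and counts.

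**Figure D3:**
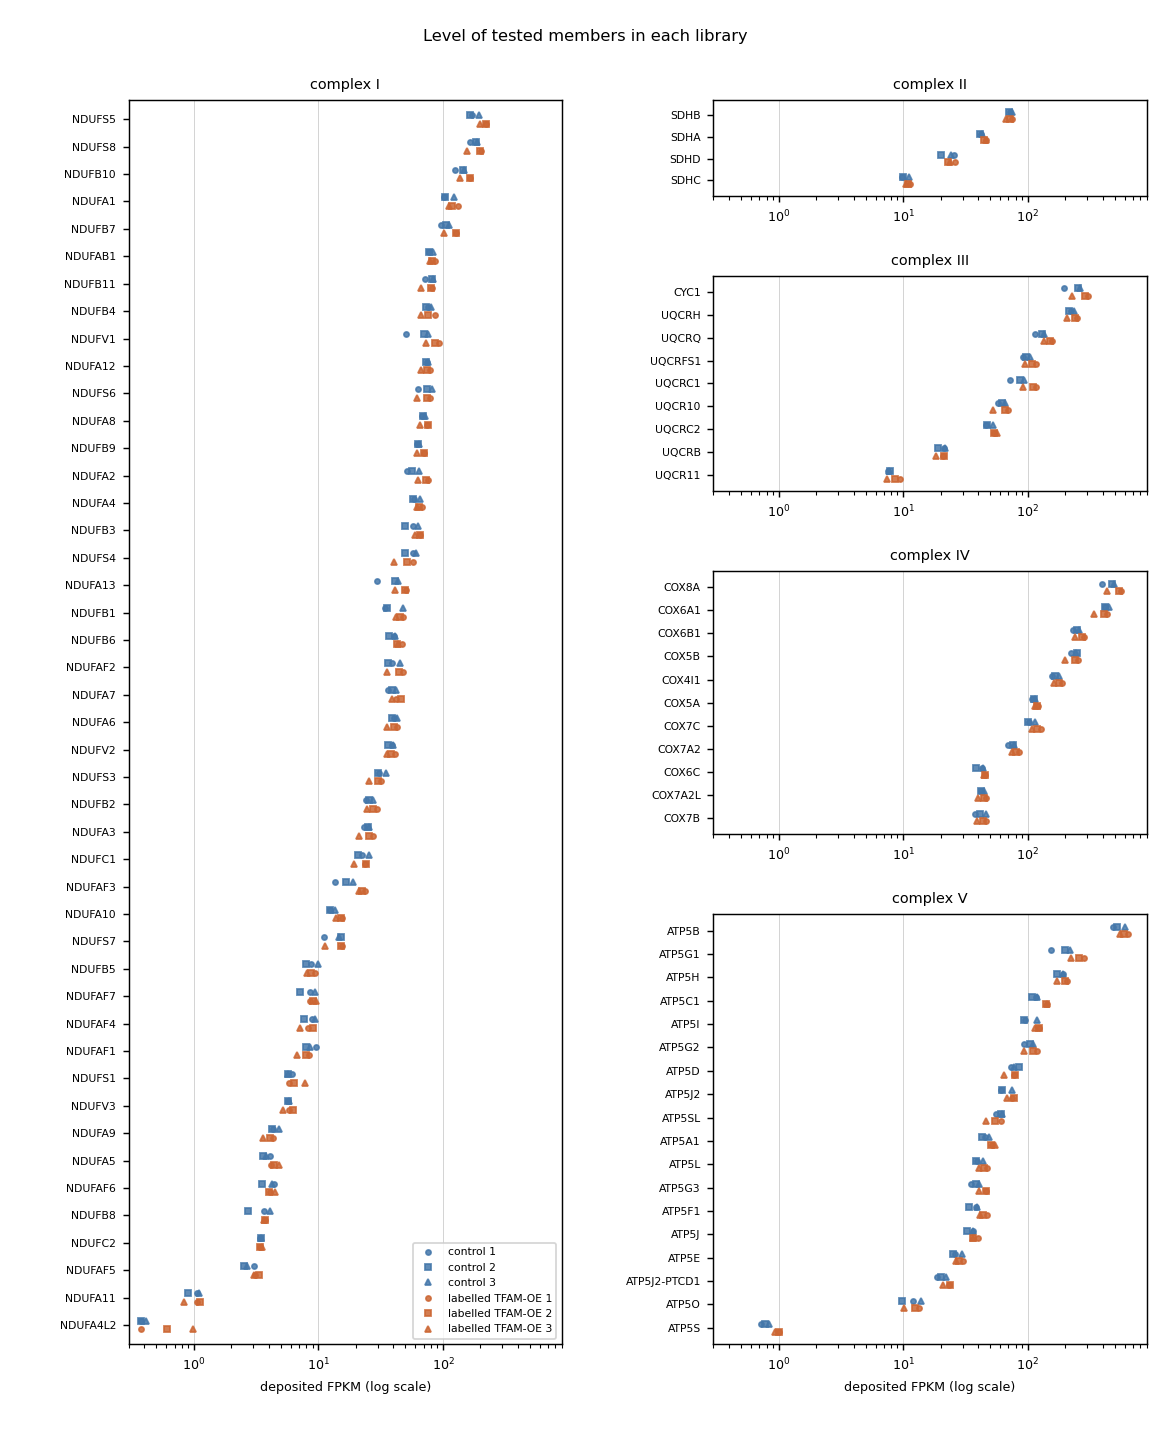
Deposited FPKM (log scale, horizontal axis) of 87 of the 88 tested members in each of the 6 libraries, 1 row per gene ordered by mean and 1 panel per complex, blue for control and orange for TFAM-OE. Levels range 642-fold in complex V and 371-fold in complex I. The lowest rows there are ATP5S, not a subunit, and NDUFA4L2, a relative of NDUFA4. The 6 libraries of 1 gene lie close together.

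**Figure D4:**
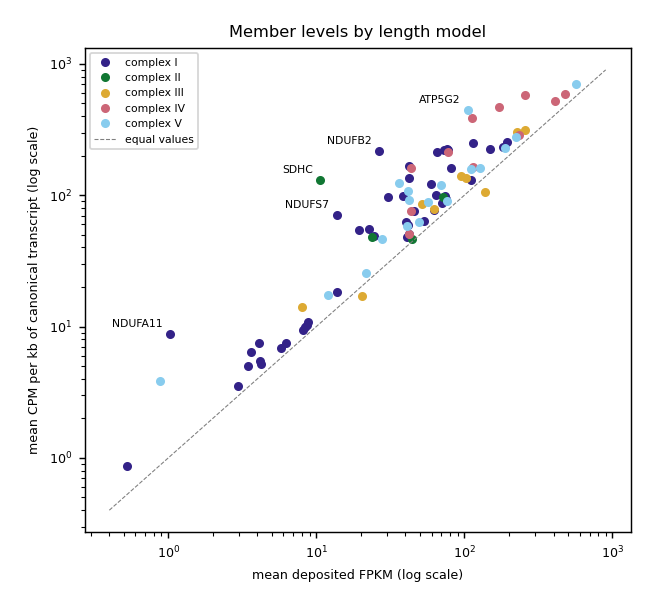
Mean level of the 88 tested members by deposited FPKM (horizontal axis) and by CPM per kilobase of canonical transcript (vertical axis), both on log scales, coloured by complex. SDHC, at 10.6 FPKM and 130 CPM per kb, lies farthest above the dashed line of equal values.

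Some low levels coincide with overlapping rows. In 8 tested members another annotated gene on the same strand covers at least 50% of the canonical transcript. They were NDUFA11, NDUFA13, NDUFA7, NDUFB8, NDUFV2, SDHA, ATP5J2-PTCD1 and ATP5O. NDUFB8, a subunit in the membrane arm, had 850 reads in 6 libraries while the read-through row that overlaps it had 25718. NDUFA11 had 994 and its overlapping row 13629, and ATP5O, of the peripheral stalk, had 2605 and its overlapping row 15949. The log2 fold changes of these 3 overlapping rows were 0.03, 0.15 and 0.02, with 0 called, and those of the genes were 0.10, 0.01 and 0.04. The sources used here do not say how reads were divided between overlapping rows, and the levels of these members are uncertain. Annotated pseudogenes of the members held 5887 uniquely mapped reads, or 0.265% of the members' own 2225259. Reads lost because they map to a member and a pseudogene alike are not in these numbers.

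Summed over a complex, the nuclear reads were not separated between the groups. The sums take every row of the symbol rule. Complex I thus includes NDUFA4 and the NDUFAF assembly factors, and complex V includes ATP5S and ATP5SL, which are not subunits, and ATP5J2-PTCD1. Complex I summed to 3093 ± 274 CPM in the control and 3352 ± 434 in TFAM-OE (SD, n = 3), complex II to 442 ± 28.6 and 470 ± 37.8, complex III to 1639 ± 176 and 1858 ± 282, complex IV to 2284 ± 187 and 2436 ± 327, and complex V to 3346 ± 345 and 3785 ± 446. The ratios lay between 1.07 and 1.13, and the groups overlapped in all 5. Together the 96 members took between 1.02% and 1.26% of the reads of a library.

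The 13 mitochondrially encoded subunit genes of the same complexes were above the control in all 13, and 7 were called higher with 0 lower, where 3.48% of all genes were called higher. The median log2 fold change was 0.49. The count ran from 3 without control replicate 2 to 10 without TFAM-OE replicate 3, and was 5 without control replicate 1 or without TFAM-OE replicate 2. Called were MT-CO3 (1.06) of complex IV, MT-ATP8 (0.85) and MT-ATP6 (0.81) of complex V, MT-ND6 (0.74), MT-ND3 (0.62) and MT-ND5 (0.60) of complex I, and MT-CYB (0.49) of complex III. MT-CO3 was at 1500, 1550 and 2030 CPM in the control and 3780, 3290 and 3530 CPM in TFAM-OE. TFAM-OE replicate 3, low in the nuclear members, was not the lowest TFAM-OE library for MT-CO3, and the groups did not overlap. In MT-ND1, MT-ND3 and MT-CO2 that library was the lowest of TFAM-OE (1600, 882 and 4040 CPM), though still above every control library.

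The ratio of mitochondrially encoded to nuclear reads was higher in every TFAM-OE library than in every control library for complexes I, III, IV and V. The nuclear part was the sum over the symbol rule given above, rows that are not subunits of the complex included. For complex I it was 2.22, 2.16 and 2.02 against 2.36, 2.31 and 2.89. In complex III it was 0.692, 0.656 and 0.630 against 0.769, 0.755 and 0.958. The ratio of complex IV was 5.69, 5.08 and 5.18 against 7.07, 6.44 and 8.10. Complex V had 0.456, 0.454 and 0.462 against 0.692, 0.652 and 0.814. The highest ratio was that of TFAM-OE replicate 3 in each, where the nuclear sum was low, and the other 2 TFAM-OE libraries were also above the controls. These ratios were compared by their library values alone, and with 3 libraries against 3 an exact permutation test could not go below 0.1.

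**Figure D5:**
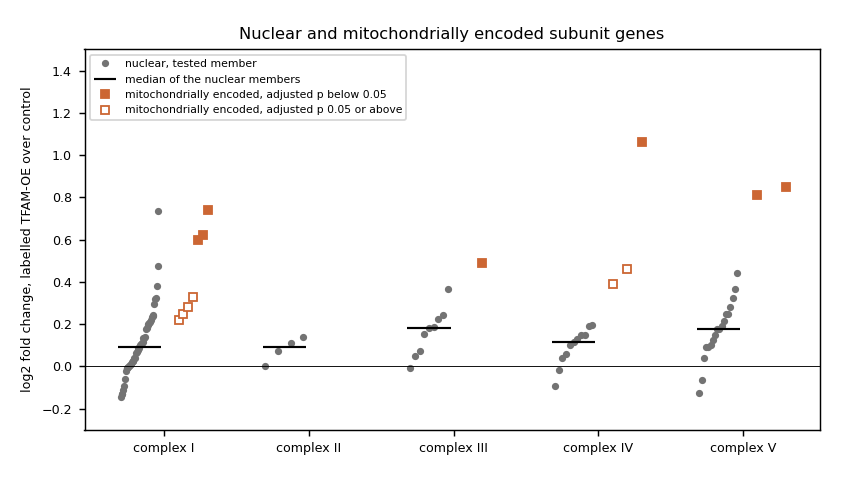
Log2 fold change of TFAM-OE over control (vertical axis) by complex for the 88 nuclear members (grey, with their median as a bar) and the 13 mitochondrially encoded genes (orange squares, filled where the adjusted p is below 0.05). All 13 squares lie above the nuclear median of their complex, which is between 0.09 and 0.18, and 7 of them are filled.

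Other genes of the pathway were counted in the same fit. Of 9 tested complex I assembly genes outside the symbol rule, 1 was called higher, FOXRED1 (log2 fold change 0.57, adjusted p = 0.0325), and 0 lower. In 10 genes of complex II and III assembly, 21 of complex IV assembly, 4 of complex V assembly and inhibition, 16 of mobile carriers and electron entry, and 13 enzymes of the citric acid cycle, 0 were called in either direction, with 7 higher and 2 lower in all at an unadjusted p below 0.05. Their median log2 fold changes were 0.14, 0.03, 0.09, 0.11 and 0.12. Of 12 nuclear regulators of respiratory genes, 11 were tested and 0 were called (0 higher and 1 lower at an unadjusted p below 0.05), and their median was -0.05.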

How the data were processed

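PolyA RNA of A549 cells was sequenced in 3 control and 3 TFAM-OE libraries. According to the methods and the submitters' processing notes, the authors trimmed the reads with the FASTX-Toolkit, aligned them to GRCh38 with TopHat2 and counted uniquely mapped reads. The deposited values are whole-number counts per gene and FPKM calculated by the authors, for each library. The counting program is not given in the sources used here, nor is the annotation or whether strand was used. The members and lists were chosen with earlier results of these data known.

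The two-sided quasi-likelihood test of edgeR (4.0.16, in R 4.3.3) was applied to the counts after TMM scaling, on the 16555 genes kept by filterByExpr, with Benjamini-Hochberg adjustment over all of them. Genes were called at an adjusted p below 0.05. CPM values are TMM-scaled, and library deviations were taken on log2(CPM + 0.5). The test was tested on simulated data. Libraries totalled 26650854 to 37321956 reads, which limit counting error only. Coordinates, transcript lengths, GC content and overlaps came from GENCODE version 44 (GRCh38).

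Genes named are the members with the highest and lowest mean FPKM of each complex, a fixed list of core subunits and isoforms, members below the filter, called genes of pathway lists, and TFAM. Members with an unadjusted p below 0.05, and those named for overlapping rows or for promoter letters, were named after their values were seen. Some genes of the fixed list and of the marker lists are counted but not reported here by name. Alternatives were limma-voom (limma 3.58.1), the exact test of edgeR, DESeq2 (1.42.0), limma-trend on log2(FPKM + 0.1) or log2(FPKM + 1), 3 other scalings, 2 other filters, a length offset, a replicate block and each library left out. Figures were drawn with matplotlib (3.10.9).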

Additional observations from a re-analysis of the deposited data

How the results depend on the processing

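Leaving out 1 library gave between 0 and 13 members called higher, 0 called lower and 0 past the study's thresholds, between 3 and 10 mitochondrially encoded subunits called higher, and between 3 and 18 called higher and 0 and 2 called lower over all pathway lists (7, 8 and 0 with all libraries). The complex medians ranged from 0.02 to 0.18 (I), 0.02 to 0.15 (II), 0.07 to 0.27 (III), 0.04 to 0.20 (IV) and 0.11 to 0.28 (V), and TFAM from 0.04 to 0.14. Over all genes, 576 higher and 796 lower became 66 and 240 without control replicate 2, and 1428 and 1786 without TFAM-OE replicate 3. Members called higher were 4 with every gene with a read, 2 with DESeq2 and 2 with edgeR's exact test, 1 with library size alone, 3 with the length offset, 9 (and 1 lower) with the length and GC offset and 4 without control replicate 1 and TFAM-OE replicate 3, the last pair of settings chosen after the data were seen. Pathway genes called higher were 13 with every gene with a read, 13 with DESeq2, 13 with the exact test, 4 with limma-trend on FPKM with 0.1 or 1 added (4 of them mitochondrially encoded), and 21 (12 mitochondrially encoded) with the length and GC offset. Pathway genes called lower were 1 with every gene with a read, the exact test, the length offset, the length offset with the block and the pair of libraries left out, and 3 with the length and GC offset, where TFAM was 0.27 (adjusted p = 0.038). The cause of these differences was not tested.

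The replicate numbers gave no sign of pairing (correlations of same-numbered libraries of -0.22, 0.01 and -0.27, and of the others from -0.04 to 0.25). With 3 libraries per group this cannot exclude a culture or preparation shared by number. With a replicate block 0 members were called, 4 mitochondrially encoded subunits and 4 pathway genes were called higher, and 74 genes were higher and 285 lower. Over all genes the counts were 934 and 1106 with DESeq2, 980 and 1236 with the exact test, 1034 and 1485 with every gene with a read, 160 and 293 or 148 and 261 with limma-trend, 1113 and 1218 with the length offset, and 1332 and 1536 with the length and GC offset. Per kilobase of canonical transcript, an alternative chosen after the data were seen, the median level was 67.1 for complex I (40.5 by FPKM), 72.2 for II (33.8), 286 for IV (115) and 99.4 for V (52.9). No result reversed a call. Among 35 named members, 25 of 734 alternative values changed sign, in 7 genes, of which SDHB was the most frequent, and 0 of 273 did among the mitochondrially encoded genes.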
